A study of Saccharomyces cerevisiae with 8 samples.

Results

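The yeast genes of zinc uptake and storage and of the zinc-responsive activator Zap1 were followed in newly made RNA. The genes were ZRT1 (YGL255W), ZRT2 (YLR130C), ZRT3 (YKL175W), ZAP1 (YJL056C), ZRC1 (YMR243C), ADH4 (YGL256W) and ZPS1 (YOL154W). They were chosen by systematic name from the table of raw counts, and all 7 were found among its 4928 features. All 7 also passed the filter on low counts, which left 4901 genes. The rule itself holds no measured value, but the names were chosen with the fold changes of these libraries in view. The counts of called genes and the p-values below therefore describe the fit and are no support for the choice of these genes.

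RNA was labelled in living cells with 4-thiouridine (4tU), a uridine analogue that enters RNA while it is made, and the labelled RNA was sequenced (4tU-seq). All cultures were of 1 haploid strain of Saccharomyces cerevisiae of mating type alpha, with an ade2 deletion marked by hisG and the alleles his3Δ200, leu2Δ0, lys2Δ0, met15Δ0, trp1Δ63 and ura3Δ0. In all of them SRB10 was replaced by KanMX and the TRP1 plasmid pSH599 (ars cen) supplied srb10as-1, which carries Y236G. Srb10 is the kinase (Cdk8) of the Mediator complex, and the mutant form can be blocked with the ATP analogue 1-NA-PP1. The study asked how newly made RNA changes when this kinase is inhibited. The 4 groups, of 2 libraries each, received DMSO or 6 µM 1-NA-PP1 for 12 minutes at 30 °C and were called steady state, or went on to 37 °C for 12 minutes more and were called heat shock. Labelling was with 5 mM 4tU for 5 minutes. No group had unmodified SRB10. No source used here gave the zinc content of the medium, labelled YPD-Trp. The heat shock cultures also stayed longer after DMSO or 1-NA-PP1 was added, so temperature and that added time cannot be told apart. The labels do not say whether replicates were separate cultures, so the spread between them may be technical.

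Zap1 is a zinc finger protein that binds zinc-responsive elements in promoters and activates its target genes when cells are short of zinc. It also activates its own gene. Zinc enters the cell through Zrt1, the high-affinity transporter of the plasma membrane, and Zrt2, the low-affinity one. The vacuole is the zinc store, which Zrc1 fills and Zrt3 empties. Adh4 is an alcohol dehydrogenase made in zinc-limited cells, and Zps1 is a cell surface protein whose gene is a Zap1 target.

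Steady state libraries held 60372371 to 65134744 counts and heat shock libraries 14680275 to 17743527. The deleted genes ADE2, LEU2, MET17 (MET15) and URA3 had 0 counts in all 8 libraries. SSN3, the name of SRB10 in the gene tables, was read from the plasmid at 2083 to 3431 CPM (counts scaled to the size of the library). TRP1, the marker of that plasmid, stood at 69.9 to 145 CPM, and HIS3 and LYS2 were not checked. Of the mating type alpha genes, STE3 stood at 206 to 540 CPM and MFALPHA1 at 460.5 to 3082 CPM, while the a-factor genes MFA1 and MFA2 had 0 to 12 counts per library. STE3 and MFALPHA1 were called lower in both heat shock comparisons, with log2 changes of -1.33 and -2.50 in DMSO cultures. With 1-NA-PP1 their log2 changes were -1.01 and -2.34. STE2 and BAR1, genes of mating type a, stood at 9.83 to 29.2 CPM and 4.52 to 10.6 CPM, and both were called higher in both heat shock comparisons. What gave these counts was not tested.

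The promoters of these genes were searched for the published zinc-responsive element, which reads ACCTT, any base, AAGGT, on both strands (the motif is its own reverse complement) in the 500 bases before the deposited transcript start, allowing 1 mismatch among its 10 fixed letters. Sequences are from the RefSeq R64 genome, which has the coordinates of sacCer3, and run 5′ to 3′ on the strand of the gene. The annotation's start may count from 0, so distances may be off by 1 base. The 300 bases before the starts of ZRT1 (chrVII:20633-20932, plus strand) and ZPS1 (chrXV:34324-34623, plus strand) are shown because these genes had the largest changes of the group, with the matches in capitals.
ZRT1: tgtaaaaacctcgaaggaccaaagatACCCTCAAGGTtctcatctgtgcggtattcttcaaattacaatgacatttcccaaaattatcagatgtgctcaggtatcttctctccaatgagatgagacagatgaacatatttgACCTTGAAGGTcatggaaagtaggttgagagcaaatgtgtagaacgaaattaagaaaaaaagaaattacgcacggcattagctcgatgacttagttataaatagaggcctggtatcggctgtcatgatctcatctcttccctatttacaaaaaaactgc
ZPS1: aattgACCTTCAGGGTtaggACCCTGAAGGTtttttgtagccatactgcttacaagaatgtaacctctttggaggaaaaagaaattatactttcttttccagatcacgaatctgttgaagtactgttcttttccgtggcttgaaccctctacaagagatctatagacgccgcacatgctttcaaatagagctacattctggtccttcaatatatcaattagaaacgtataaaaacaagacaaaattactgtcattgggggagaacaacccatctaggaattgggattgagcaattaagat

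For the other 5 genes each match is shown with up to 10 bases on either side, again with the match in capitals, so that the letters can be compared. The matches lie at chrX:333207-333217 (ZAP1), chrXII:404363-404373 and chrXII:404314-404324 (ZRT2), chrXI:118638-118648 (ZRT3), chrXIII:756330-756340 (ZRC1) and chrVII:14641-14651 (ADH4). ZAP1, ZRT2 and ZRC1 are on the minus strand and ZRT3 and ADH4 on the plus strand.
ZAP1: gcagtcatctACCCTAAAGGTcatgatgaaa
ZRT2, far match: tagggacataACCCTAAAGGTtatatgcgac
ZRT2, near match: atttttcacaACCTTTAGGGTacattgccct
ZRT3: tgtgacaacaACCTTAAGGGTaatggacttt
ZRC1: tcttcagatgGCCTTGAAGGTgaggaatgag
ADH4: acttaaatgaACCTTCACGGTtaagcaacc

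All 7 genes held at least 1 match, against 106 of the 4928 features (2.15%). At least 2 matches were found in 4 features (0.0812%), namely ZRT1, ZRT2, ZPS1 and RTT109, a histone acetyltransferase gene. ZRT1 was the only one of the 7 with an exact match, which 9 features had (0.183%). Of the 10 matches in these genes, 9 had 1 mismatch, and in 7 of these it was T4C or A8G, counted from 1 at the 5′ end of the motif. These are the same substitution read on opposite strands. Over all features, 12 of 101 matches with 1 mismatch (11.9%) had it, and the 7 are among the 12. ZRC1 had A1G and ADH4 had A8C. Because these genes are known as Zap1 targets, the presence of matches is in part how they came to be listed.

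**Figure D1:**
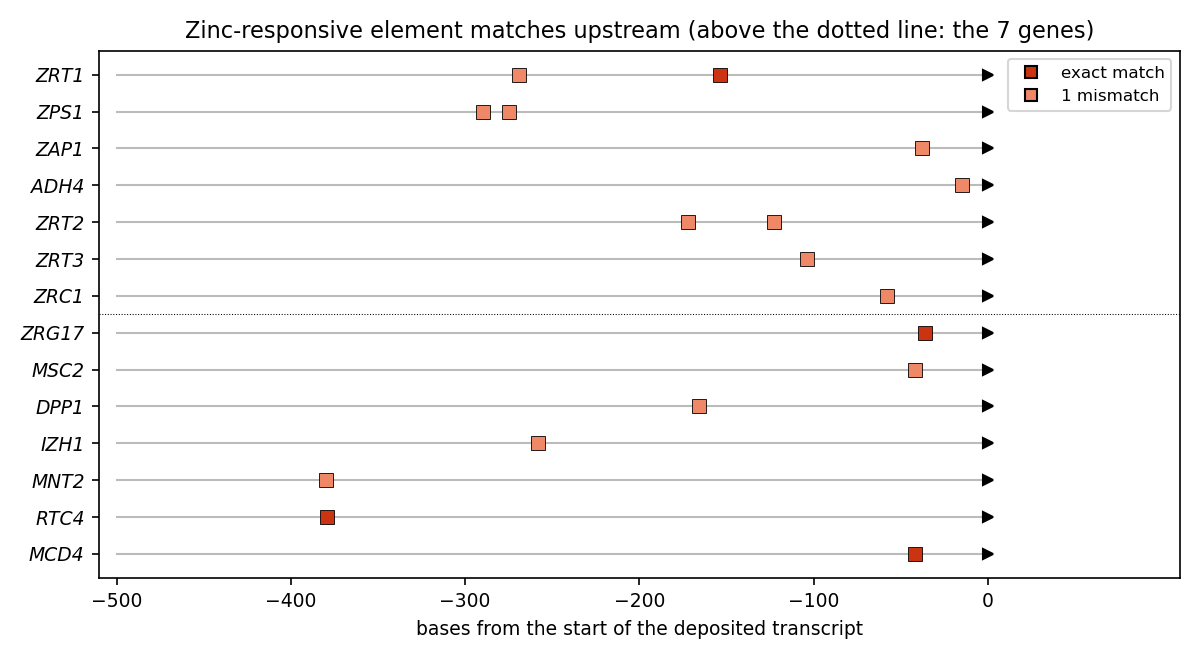
Positions of motif matches in the 500 bases before the deposited transcript start (x axis, in bases; the arrowhead marks the start) for the 7 genes and for the genes of the wider zinc lists that had a match. Squares are exact matches (dark) or matches with 1 mismatch (light); matches lie from base -20 of ADH4 to base -295 of ZPS1 within the 7 genes.

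The match of ADH4 begins 20 bases before its deposited transcript start, and the same bases are the match of MNT2, a mannosyltransferase gene on the opposite strand. That ADH4 start lies 498 bases before the coding sequence, against 34 to 134 bases for the other 6 genes. The bases between the deposited start and the coding sequence were not searched for the motif in any of the 7 genes. They are part of the transcript length used below. VEL1, MNT2, ADH4 and ZRT1 are consecutive features of chromosome VII, with gaps of 354, 394 and 4408 bases. All of these are on lists of Zap1-activated genes. ZRT1 lies at chrVII:20933-22204 and ADH4 at chrVII:14661-16524. ZRT2 lies at chrXII:402751-404196, ZRT3 at chrXI:118747-120469, ZAP1 at chrX:330320-333174, ZRC1 at chrXIII:754644-756277 and ZPS1 at chrXV:34624-35499. Transcripts were counted whole, untranslated ends included. ZRT3 overlaps YKL174C (TPO5) on the opposite strand, and no source used here says whether reads were counted by strand, so its values are uncertain. The other 6 overlap no other feature, and no 50-base window of any of the 7 occurs elsewhere in the genome. The related transporter genes ZRT1 and ZRT2 share no run longer than 11 bases.

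At steady state with DMSO, ZRT1 gave the most newly made RNA per length of the 7. Levels between genes are compared here as CPM per kilobase of transcript, as mean ± SD of 2 libraries. ZRT1 stood at 311 ± 75.5, at the 95th percentile of all genes tested, whose median was 74.5. ZAP1 followed at 152 ± 29.7 and ZRT3 at 143 ± 17.8, and the libraries of these neighbours overlapped. ZRT2 stood at 95.8 ± 11.1 and ZRC1 at 52.4 ± 1.05, each apart from its neighbours in the order. The lowest were ADH4 at 35.9 ± 3.42 and ZPS1 at 31.5 ± 15.5, which overlapped. With 1-NA-PP1 at steady state ZRT1 was still first by mean, at 182 ± 78.7, but its libraries overlapped those of ZRT3 (125.5 ± 17.8), and those of ZRT3 overlapped ZAP1 (125 ± 24.9).

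Under heat shock the order was another one, and it was the same with DMSO and with 1-NA-PP1. By mean CPM per kilobase it ran ZRT3, ZRT2, ZAP1, ZRC1, ZRT1, ADH4 and ZPS1, with no overlap between neighbours in either group. ZRT1 held position 5, at 44.4 ± 3.77 with DMSO (percentile 32.5 of all genes) and 35.4 ± 2.72 with 1-NA-PP1. ZRT3 led with 120 ± 4.14 and 121 ± 8.80, close to its steady state level. ZPS1 was last with 5.25 ± 1.02 and 4.93 ± 0.968.

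**Figure D2:**
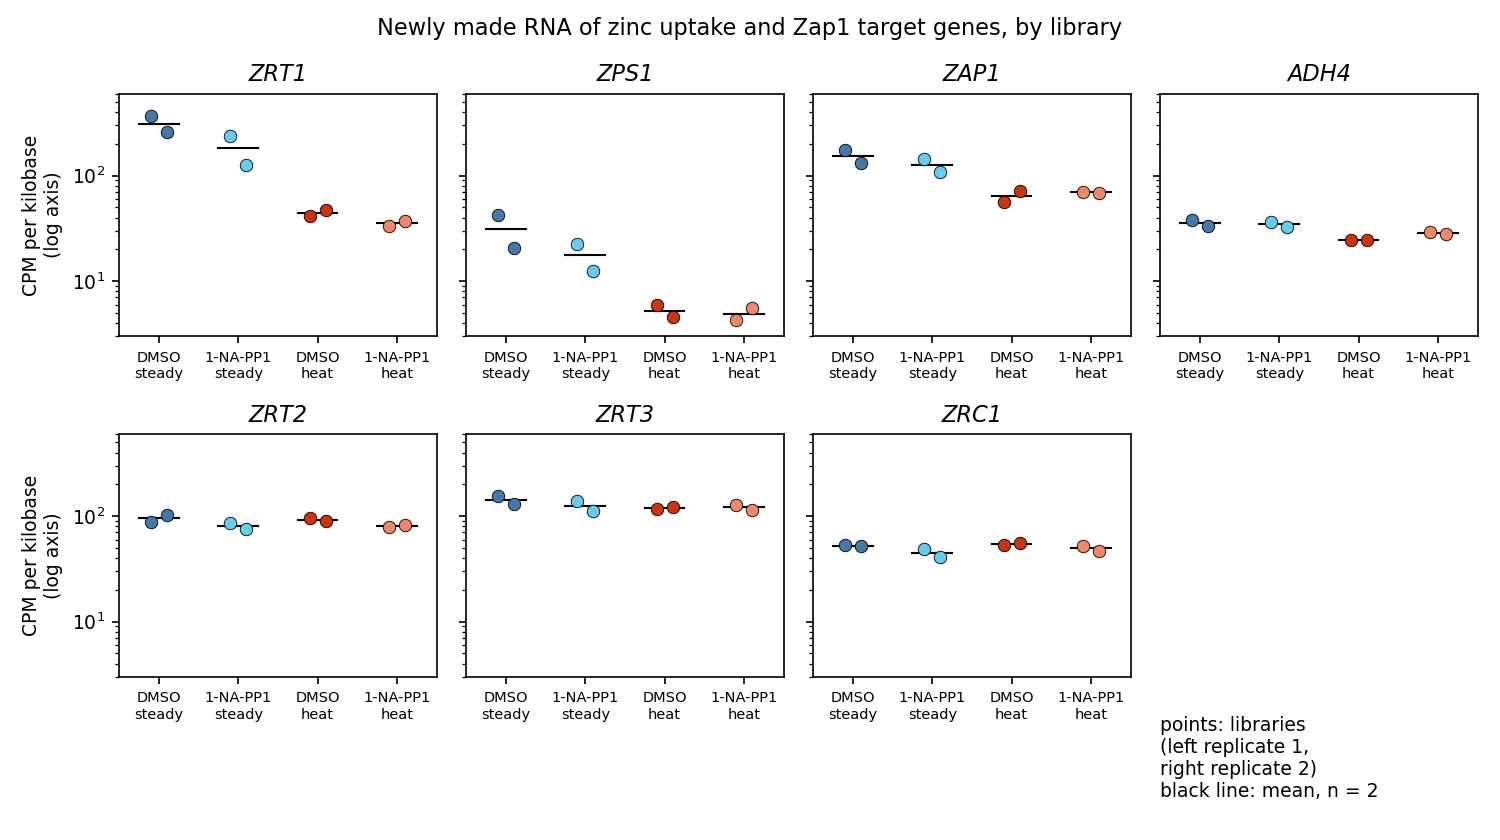
Newly made RNA of each gene in each library, as CPM per kilobase of transcript on a log axis; points are libraries, and black lines are means of 2. ZRT1, ZPS1 and ZAP1 sit lower in all 4 heat shock libraries than in any steady state library, while ZRT2, ZRT3 and ZRC1 stay near 1 level.

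In DMSO cultures the newly made RNA of ZRT1, ZPS1, ZAP1 and ADH4 fell under heat shock, 7-fold for ZRT1 and 5.95-fold for ZPS1, and none of the 7 was called higher. Thus 4 of the 7 were called lower and 0 higher, where 28.9% of all genes tested were called lower, 29.6% higher and 58.5% in either direction. The libraries of the groups were apart for 5 of the 7 with heat shock lower (43% of all genes) and for ZRC1 with heat shock higher (40.9%). The median log2 change of the 7 was -0.54 and that of all genes -0.01. In bulk libraries, fewer cells making an RNA and less of it made per cell cannot be told apart. Adjusted p-values are Benjamini-Hochberg values of edgeR's quasi-likelihood test over all 4901 genes.

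ZRT1, the high-affinity uptake transporter, had 463 and 327 CPM in the DMSO steady state libraries and 53.1 and 59.9 CPM under heat shock. Both heat shock libraries lay far below both steady state libraries. The log2 change was -2.81 (SE 0.294, adjusted p = 0.00013), a 7-fold fall and the sixth lowest of all genes tested. ZRT2, the low-affinity transporter, had 127 and 150 CPM at steady state and 138 and 129 CPM under heat shock. Its libraries overlapped, and the log2 change was -0.05 (95% interval -0.29 to 0.19, adjusted p = 0.69). Both promoters hold a pair of motif matches, and the difference between the changes of ZRT1 and ZRT2 was not tested.

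ZAP1, which encodes the activator itself, had 494 and 374.5 CPM at steady state and 160 and 204.5 CPM under heat shock. The groups did not overlap, and the log2 change was -1.26 (SE 0.18, adjusted p = 0.000605), a 2.39-fold fall.

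The vacuolar transporters did not pass the test. ZRT3, which releases zinc from the vacuole, had 268 and 225 CPM at steady state and 202 and 212 CPM under heat shock, so that both heat shock libraries were the lower ones. Its log2 change was -0.25 (95% interval -0.53 to 0.02, adjusted p = 0.101), and it was called under 4 of 15 alternative settings. ZRC1, which carries zinc into the vacuole, had 86.7 and 84.3 CPM at steady state and 87.5 and 90.1 CPM under heat shock. Its log2 change was 0.05 (95% interval -0.18 to 0.28, adjusted p = 0.66).

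ZPS1, the cell surface protein gene, had 37.1 and 17.9 CPM at steady state and 5.23 and 3.96 CPM under heat shock. All values under heat shock were lower, but the steady state libraries themselves differed 2.07-fold and the heat shock values rest on 87 and 54 counts. Its log2 change was -2.57 (SE 0.441, adjusted p = 0.00147), a 5.95-fold fall and the ninth lowest of all genes. ADH4, the zinc-limitation alcohol dehydrogenase gene, had 71.4 and 62.4 CPM at steady state and 46.0 and 45.8 CPM under heat shock, with no overlap. The change was -0.54 on the log2 scale (SE 0.0984, adjusted p = 0.00196), a 1.46-fold fall. These 4 calls held under all 15 alternative settings.

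The authors' deposited table for the same comparison scales the libraries with other factors, under which the median log2 change of all genes is -0.32. An edgeR fit of only these 2 groups with these factors called 2053 genes lower and 425 higher, against 1627 and 1511 in the same libraries with TMM (edgeR's scaling by a trimmed mean). In the authors' deposited table the log2 change was -3.10 for ZRT1, -2.90 for ZPS1, -1.54 for ZAP1 and -0.85 for ADH4. Relative to the median of all genes in the authors' deposited table, these changes are -2.78, -2.58, -1.22 and -0.53. ZRC1 is negative in the authors' deposited table before that subtraction, at -0.25, and 0.07 after it.

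With 1-NA-PP1 present, ZRT1, ZPS1, ZAP1 and ADH4 fell under heat shock as well. Again 4 of the 7 were called lower and 0 higher, against 28.1% of all genes called lower, 25.3% higher and 53.4% in either direction. The same 4 were apart and lower (40% of all genes), and none was apart and higher (36.5%). ZRT1 had 302 and 160.5 CPM at steady state and 42.6 and 47.4 CPM under heat shock. All heat shock values were below all steady state values, with a log2 change of -2.36 (SE 0.291, adjusted p = 0.000333), a 5.14-fold fall. ZPS1 had 19.8 and 10.96 CPM at steady state and 3.72 and 4.91 CPM under heat shock, again without overlap. Its log2 change was -1.83 (SE 0.443, adjusted p = 0.00902), and the call was lost without the first heat shock library with 1-NA-PP1 (adjusted p = 0.073) and in limma voom (adjusted p = 0.0872).

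ZAP1 in the same comparison had 408 and 307 CPM at steady state and 201 and 197 CPM under heat shock. The heat shock pair was nearly equal and lay below both steady state libraries, with a log2 change of -0.84 (SE 0.178, adjusted p = 0.0048). ADH4 had 67.8 and 61.1 CPM at steady state and 54.2 and 51.6 CPM under heat shock. Its libraries did not overlap, and the log2 change was -0.28 (SE 0.0975, adjusted p = 0.038). The ADH4 call with 1-NA-PP1 was kept in 6 of 15 alternative settings, with adjusted p from 0.0193 to 0.277. ZRT3 changed by -0.05, ZRC1 by 0.16 and ZRT2 by less than 0.01 on the log2 scale, with adjusted p of 0.74, 0.21 and 1.00. In a fit of only these 2 groups with the deposited factors, 183 genes were called lower and 23 higher, against 1161 and 1023 in the same libraries with TMM. Of the 7, ZRT1 and ZPS1 were called in that fit with the deposited factors. The authors' deposited table for 1-NA-PP1 also has ZAP1 under the threshold, at -1.52 (adjusted p = 0.0101). ADH4 misses it there, at -0.93 (adjusted p = 0.101), and the median of all genes is -0.66.

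**Figure D3:**
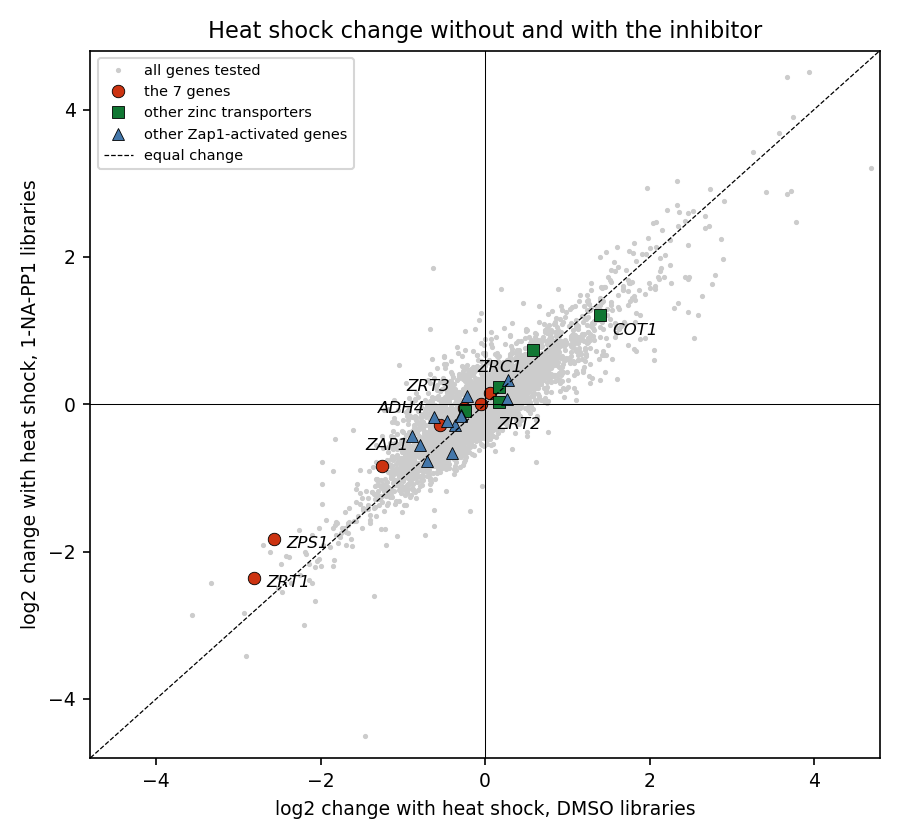
Log2 change with heat shock in DMSO libraries (x axis) and in 1-NA-PP1 libraries (y axis) for all 4901 genes tested (grey), the 7 genes (circles) and 2 wider lists (squares and triangles); the dashed line marks equal change. ZRT1 (-2.81 and -2.36) and ZPS1 (-2.57 and -1.83) lie near the lower left end of the cloud, and ZRT2 and ZRC1 lie close to the centre.

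Whether the inhibitor altered the heat shock change was tested as the difference of the log2 changes, 1-NA-PP1 minus DMSO. By edgeR none of the 7 passed, and 0.0204% of all genes did (1 gene, lower). None of the 7 had an unadjusted p under 0.05, which 13.5% of all genes had, and DESeq2 called none of them. All 7 differences were positive, from 0.05 for ZRT2 to 0.74 for ZPS1. The median of the 7 was 0.26, and that of all genes -0.04. The same steady state libraries enter the comparison of 1-NA-PP1 with DMSO below, so the directions in both are not independent. ZPS1 had a 95% interval of -0.73 to 2.21 and an adjusted p of 0.58. ZRT1 had a difference of 0.45 (95% interval -0.46 to 1.35, adjusted p = 0.59). ZAP1 stood at 0.41 (95% interval -0.16 to 0.99) and ADH4 at 0.26 (95% interval -0.06 to 0.58). Without the first 1-NA-PP1 steady state library, a fit that leaves 1 library in that group, the difference for ZRT1 was 0.97. Over 13 alternatives the difference ran from 0.06 to 0.97 for ZRT1 and from 0.12 to 1.23 for ZPS1. The lowest value came without the second 1-NA-PP1 steady state library for ZRT1 and without the first DMSO one for ZPS1. The intervals of ZRT1 and ZPS1 thus leave room for differences over 2-fold in the positive direction.

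At steady state, 1-NA-PP1 against DMSO gave lower means for all 7 genes, but none was called. No gene at all was called in this comparison by edgeR (0%), while 32.8% of all genes had an unadjusted p under 0.05, and so had ZRT1, ZRT2, ZRC1 and ZPS1. The median log2 change of the 7 was -0.24, against 0.05 for all genes. The 1-NA-PP1 replicates differed more than those of DMSO, with a median absolute log2 difference of 0.133 against 0.0556 over all genes.

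ZRT1 had 463 and 327 CPM with DMSO and 302 and 160.5 CPM with 1-NA-PP1, so that the groups did not overlap. Its log2 change was -0.77 (SE 0.269, 95% interval -1.39 to -0.15, adjusted p = 0.0961). DESeq2's Wald test called it (adjusted p = 0.0201), and the same test called 994 of 4732 genes. Without the first 1-NA-PP1 steady state library the log2 change of ZRT1 was -1.30. Over 16 alternatives its change ran from -1.30 to -0.39, and these 2 alternatives called it. ZPS1 had 37.1 and 17.9 CPM with DMSO and 19.8 and 10.96 CPM with 1-NA-PP1. Its libraries overlapped, with a log2 change of -0.84 (95% interval -1.66 to -0.02, adjusted p = 0.146). It was -0.22 without the first DMSO steady state library, and -1.33 without the first 1-NA-PP1 one.

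ZRT2 had 127 and 150 CPM with DMSO and 125 and 109 CPM with 1-NA-PP1, a log2 change of -0.24 (adjusted p = 0.148). ZRC1 had 86.7 and 84.3 CPM with DMSO and 78.9 and 66.3 CPM with 1-NA-PP1, a log2 change of -0.24 (adjusted p = 0.139). ZRT1, ZRT2 and ZRC1 were the members whose groups did not overlap, all with 1-NA-PP1 lower. Such separation was common, with 28% of all genes apart and lower and 44.7% apart and higher. ZAP1 (-0.28), ZRT3 (-0.19) and ADH4 (-0.05) overlapped between the groups, with adjusted p from 0.29 to 0.72. Without the first 1-NA-PP1 steady state library, 6 of the 7 were called lower, all but ADH4, and 1712 of 4890 genes were called.

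Replicate 1 was the higher library for ZRT1, ZPS1, ZAP1, ZRT3, ADH4 and ZRC1 in both steady state groups. In DMSO steady state the log2 difference between replicates was 1.05 for ZPS1, the fifth largest in size of all genes tested. It was 0.50 for ZRT1 (rank 23) and 0.40 for ZAP1 (rank 40), while 95% of genes differed by less than 0.206. ZRT2 went the other way there, by -0.24 (rank 171). The genes with the largest heat shock falls of the group were thus also those that differed most between the DMSO steady state libraries. What set this difference was not tested.

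**Figure D4:**
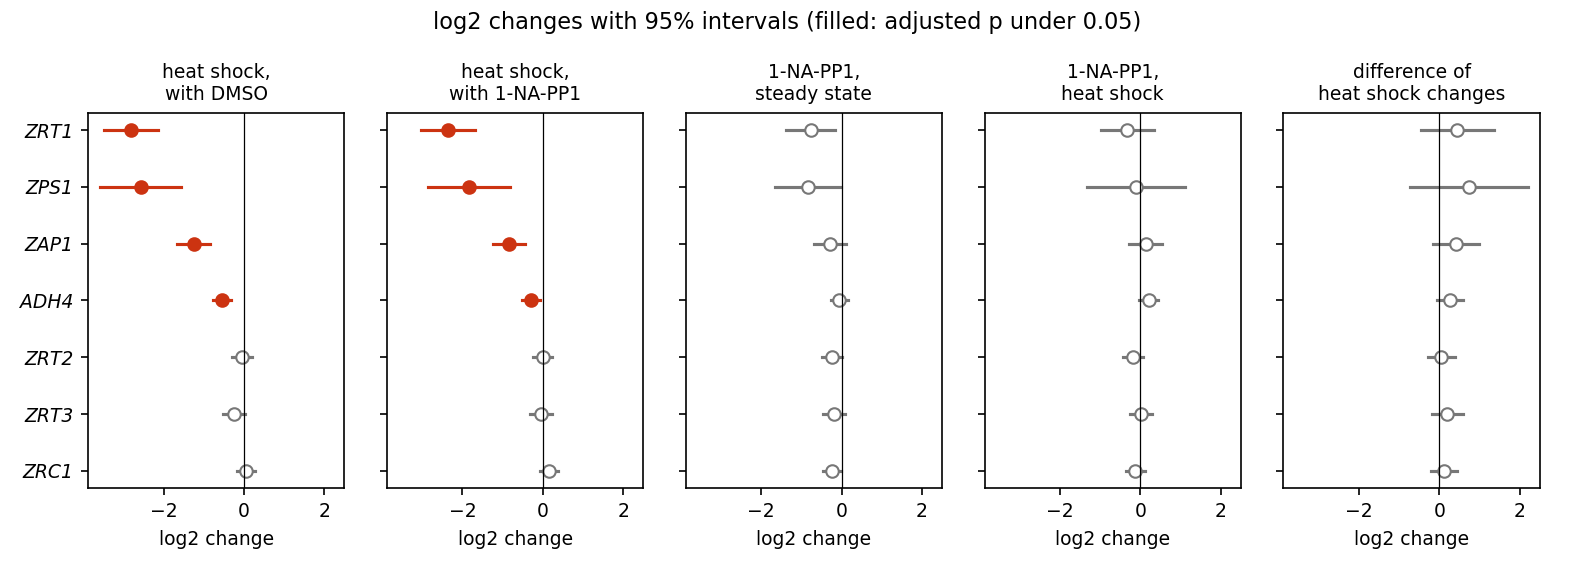
Log2 changes of the 7 genes (points) with 95% intervals (lines) in the 5 comparisons; filled points passed an adjusted p of 0.05. The filled points are ZRT1, ZPS1, ZAP1 and ADH4 under heat shock, with DMSO and with 1-NA-PP1, and all points for 1-NA-PP1 at steady state lie left of 0.

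Under heat shock, edgeR called none of the 7 for 1-NA-PP1 against DMSO, and 0.326% of all genes were called, 0.122% lower and 0.204% higher. None of the 7 had an unadjusted p under 0.05, which 14.9% of all genes had, and DESeq2 called none of them. ZRT1 had 53.1 and 59.9 CPM with DMSO and 42.6 and 47.4 CPM with 1-NA-PP1. The groups were apart, and the log2 change was -0.33 (95% interval -0.99 to 0.34, adjusted p = 0.64). ADH4 had 46.0 and 45.8 CPM with DMSO and 54.2 and 51.6 CPM with 1-NA-PP1. It was the only member apart in the higher direction, with a log2 change of 0.21 (adjusted p = 0.39). ZRT1, ZRT2 (-0.19) and ZRC1 (-0.13) were apart and lower. Of all genes, 22.8% were apart and lower and 23.2% apart and higher. ZAP1 (0.13), ZRT3 (0.01) and ZPS1 (-0.10) overlapped between the groups.

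Among the other zinc transporters, COT1 went in the opposite direction to ZRT1. COT1, which moves zinc and cobalt into the vacuole, had 154 and 148 CPM in DMSO steady state libraries and 395 and 399 CPM under heat shock. The groups were far apart, with a log2 change of 1.39 (SE 0.0607, adjusted p = 2.23e-06). With 1-NA-PP1 it rose by 1.22 (SE 0.0604). FET4, a low-affinity iron and zinc transporter, rose by 0.58 (SE 0.147) with DMSO and 0.74 (SE 0.148) with 1-NA-PP1. Of the 5 genes on this list, 2 were called higher and ZRG17, which works with Msc2 in zinc supply to the endoplasmic reticulum, was called lower (-0.24) with DMSO, where 29.6% of all genes were called higher and 28.9% lower. With 1-NA-PP1 the called genes were COT1, FET4 and MSC2 (0.24), all higher, against 25.3% of all genes. YKE4 was not called in either. In the authors' deposited table for DMSO, COT1 is at 1.09 (adjusted p = 6.48e-09) and FET4 at 0.25, which misses the threshold (adjusted p = 0.213). In the authors' deposited table for 1-NA-PP1 none of these calls holds, with COT1 at 0.59 (adjusted p = 0.269), FET4 at 0.09 (adjusted p = 0.883) and MSC2 at -0.41 (adjusted p = 0.456). The median of all genes in that authors' deposited table is -0.66.

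Of 13 further genes reported as activated by Zap1, 12 were tested and ZRG8 was not analysed here. With DMSO, 7 of the 12 fell under heat shock and 2 rose, against 28.9% and 29.6% of all genes. The median log2 change of the 12 was -0.38, and that of all genes -0.01. The lower ones were IZH4 (-0.79), MCD4 (-0.71), IZH1 (-0.62), IZH2 (-0.46), DPP1 (-0.40), EKI1 (-0.36) and MNT2 (-0.29). Izh proteins are membrane proteins linked to zinc homeostasis, Mcd4 makes GPI anchors, and Dpp1 and Eki1 belong to phospholipid metabolism. TSA1, a peroxiredoxin gene (0.28), and CKI1, a choline kinase gene (0.27), were the ones called higher, and in the authors' deposited table both are slightly negative and not called, at -0.04 and -0.03. VEL1 had the lowest value of the list, -0.89 from 4 to 89 counts in the DMSO libraries, and was not called. With 1-NA-PP1, MCD4 (-0.76), DPP1 (-0.66), IZH4 (-0.56) and EKI1 (-0.28) were called lower and TSA1 (0.33) higher, against 28.1% and 25.3% of all genes. The list median was -0.20, and that of all genes -0.02. In the authors' deposited table for 1-NA-PP1, TSA1 is at -0.33 (adjusted p = 0.562) and EKI1 at -0.90 (adjusted p = 0.0943), so neither call holds there.

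The list members with a motif match were ZRG17 and MSC2 among the 5 transporters, and DPP1, IZH1, MNT2, RTC4 and MCD4 among the 12. ZRG17, RTC4 and MCD4 held exact matches. RTC4, with an exact match, was not called in either heat shock comparison (-0.22 and 0.11).

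ADH1, the main fermentative alcohol dehydrogenase gene, and ADH3, the mitochondrial one, are reported to be lowered when Zap1 is active. Both rose with heat shock in DMSO cultures, ADH1 by 0.59 (SE 0.0998) and ADH3 by 1.40 (SE 0.0764). In the authors' deposited table ADH3 keeps its call at 1.09, and ADH1 misses the threshold at 0.27 (adjusted p = 0.194). With 1-NA-PP1 they rose by 0.27 (adjusted p = 0.049) and 1.40. In the authors' deposited table for 1-NA-PP1 neither is called, with ADH1 at -0.36 (adjusted p = 0.492) and ADH3 at 0.75 (adjusted p = 0.169). Neither promoter held a motif match. Over the 3 lists, 14 of 19 genes were called with heat shock in DMSO cultures, against 58.5% of all genes. With either DMSO steady state library left out, fewer of the 19 were called, and fewer of all genes as well. With 1-NA-PP1 it was 10 of 19, against 53.4% of all genes. Without the second 1-NA-PP1 heat shock library fewer of the 19 and fewer of all genes were called. With the deposited factors it was 0 of the 19, where 206 of 4896 genes were called.

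For 1-NA-PP1 against DMSO, edgeR called 0 of these 19 genes at steady state (0% of all genes) and 0 under heat shock (0.326% of all genes). An unadjusted p under 0.05 was found for 6 of them at steady state and 4 under heat shock, which 32.8% and 14.9% of all genes had. At steady state DESeq2 called RTC4 and ADH1, where it called 994 of 4732 genes, and voom called 0, where it called 749 of 4901. Without the first 1-NA-PP1 steady state library, edgeR called more of the 19 and more of all genes. Under heat shock DESeq2 and voom called 0. The extremes at steady state were COT1 (0.18) and FET4 (-0.27) among the transporters, VEL1 (0.31) and RTC4 (-0.28) among the Zap1-activated genes, and ADH1 (0.36, adjusted p = 0.07).

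**Figure D5:**
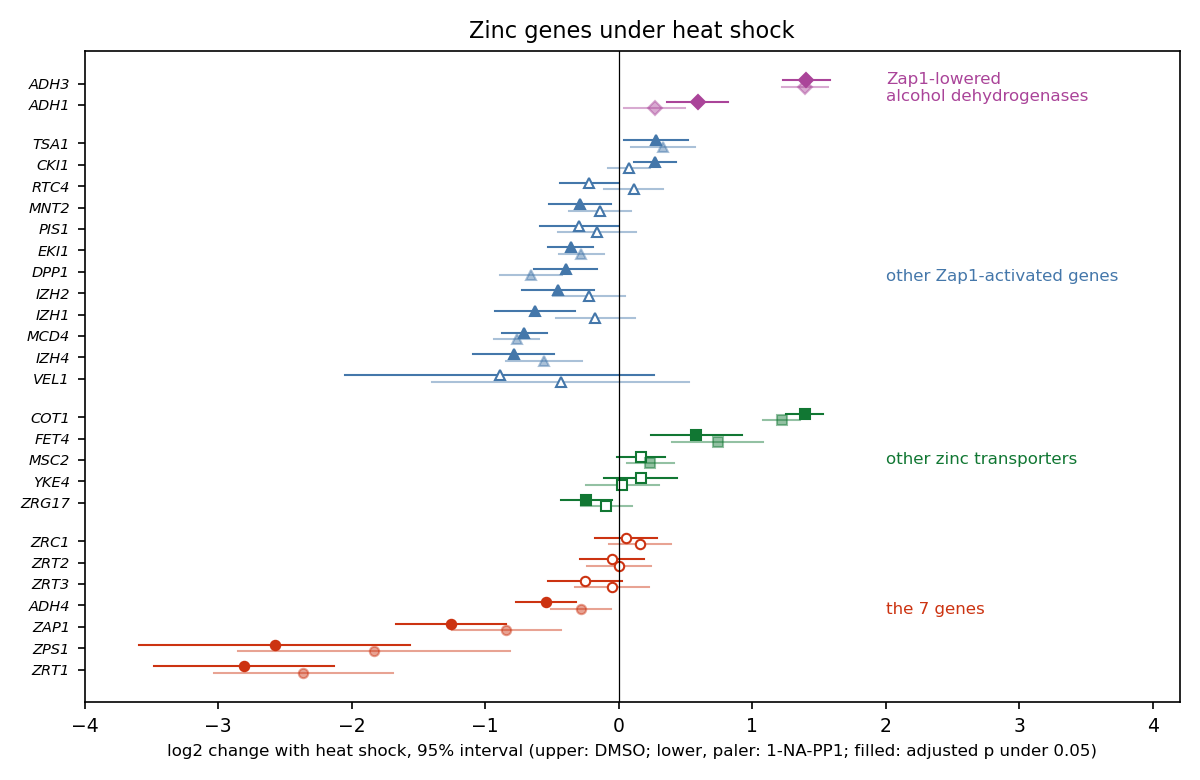
Log2 change with heat shock (x axis) of the 7 genes and the 3 wider lists (colours), with 95% intervals; the upper mark of each pair is DMSO, the lower, paler mark is 1-NA-PP1, and filled marks passed an adjusted p of 0.05. ZRT1, ZPS1 and ZAP1 lie left of every other called gene, while COT1 and ADH3 lie at 1.39 and 1.40 with DMSO.

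Within the group, ZRT1, ZPS1, ZAP1 and ADH4, the genes called lower in both heat shock comparisons, moved together over the 8 libraries. As a description over libraries that share 4 groups, Pearson's r of log2 CPM between ZRT1 and ZPS1 was 0.98, between ZRT1 and ZAP1 0.971 and between ZAP1 and ADH4 0.952. ADH4 had r of 0.894 to ZRT1 and 0.91 to ZPS1. ZRT3 lay between, with r of 0.703 to ZRT1, 0.735 to ZPS1 and 0.75 to ZAP1. ZRT2 and ZRC1 stood apart, with r to ZRT1 of 0.275 and -0.137. Among 4619 genes with enough counts, the patterns most like that of ZRT1 were those of HIF1 (r = 0.9951), a histone chaperone gene, and APM3 (0.9924), an adaptor complex gene. ZPS1 was most like ZRT1 itself (0.98) and CAC2 (0.9794), a chromatin assembly gene. ZAP1 was most like YNL058C (0.9811) and CSA1 (0.9803), and ADH4 most like POL30 (0.9705), the sliding clamp gene of DNA replication, and CDC13 (0.9693), a telomere gene. ZRC1 was nearest to LYS4 (0.9816) and DPH5 (0.9769), ZRT3 to SCS7 (0.946) and FUN26 (0.9451), and ZRT2 to GLR1 (0.9229) and AAT2 (0.9213). The points of all these correlations share the heat shock contrast and the replicate pairs.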

How the data were processed

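Raw counts were deposited by the authors as integer reads for each of 4928 transcripts of open reading frames on sacCer3. The submitters' processing notes name STAR 2.5.2b and cutadapt 1.9.1 as well as HTSeq, SAMtools and DESeq2, with no order or settings, and the strand of counting is not given in the sources used here. The authors also deposited normalised signal, the count divided by 1 factor per library, which served only as an alternative scaling. The authors' heat shock tables give, per the file headers, log2 fold changes with adjusted p-values. Other deposited values are transcript coordinates and lengths.

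Counts were fitted in R 4.3.3 with edgeR 4.0.16 (filterByExpr, TMM, glmQLFit, glmQLFTest) as 1 model of 4 groups over 8 libraries, two-sided, with Benjamini-Hochberg adjustment over 4901 genes. A gene was called at an adjusted p under 0.05. SE is the log2 change divided by the root of the F value. CPM use TMM-scaled library sizes, so a change here is one against most genes and not one of total RNA synthesis. Correlations use log2 CPM with a prior count of 2, over genes with a mean of at least 3. The model was also run on simulated counts in which a small share of genes changed, equally in both directions. That run cannot speak to the TMM scaling under heat shock, where most genes were called.

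The 7 genes and the lists were chosen with earlier results of these data known. All 7 are described. Of the lists, genes called and the extreme in each direction are named, and for each of the 7 the 2 genes of highest correlation. RTC4 under heat shock, YKE4, RTT109 and the consecutive features of chromosome VII were named after their values were seen. Alternatives used DESeq2 1.42.0, limma 3.58.1 voom, no filter, only the groups compared, the deposited factors, a replicate block and each library left out.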

Additional observations from a re-analysis of the deposited data

How the results depend on the processing

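Over 518 alternative values of the 7 genes, 463 kept their direction and their side of the threshold, 12 lost the call, 13 gained it and 30 changed sign; none of those 30 was called. With DMSO, heat shock called 4 or 5 of the 7 in all 15 alternatives, and 1-NA-PP1 under heat shock called 0 in all 15. With 1-NA-PP1, heat shock called 4, but 2 with voom, 2 with the deposited factors and 2 to 4 with 1 library left out. For 1-NA-PP1 at steady state 0 were called, but 1 by DESeq2 and 0 to 6 with 1 library left out (6 without 1-NA-PP1 steady state replicate 1). For the difference of the heat shock changes 0 were called, and 0 to 1 with 1 library left out. Heat shock with 1-NA-PP1 also lost 1 call with DESeq2 size factors in the edgeR fit, and 1 with only the groups compared. The causes were not tested.

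Signs turned with the deposited factors for 1-NA-PP1 under heat shock (ADH4 -0.41, ZAP1 -0.51, ZRT3 -0.60) and for ZRC1 under heat shock (-0.25 with DMSO, -0.49 with 1-NA-PP1). Under these factors the median of all genes lies at -0.21 to -0.66, against -0.02 to 0.05 with TMM. ZRC1 with DMSO was -0.014 without a filter. ZRT2 under heat shock with 1-NA-PP1, which lies at 0, was 0.025 with either use of DESeq2, 0.0031 with voom and 0.00012 with only the groups compared. With 1 library left out, values ran from -0.149 to 0.046 for ADH4 with 1-NA-PP1 at steady state. For 1-NA-PP1 under heat shock they ran from -0.035 to 0.334 for ZAP1, -0.307 to 0.127 for ZPS1 and -0.0547 to 0.0939 for ZRT3. For heat shock they ran from -0.0417 to 0.0749 (ZRC1, DMSO), -0.164 to 0.0718 (ZRT2, DMSO), -0.0971 to 0.106 (ZRT2, 1-NA-PP1) and -0.188 to 0.103 (ZRT3, 1-NA-PP1). For the difference they ran from -0.0127 to 0.237 for ZRC1 and -0.0711 to 0.165 for ZRT2.

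Counts over all genes differed by more than 1.5 times in these cases. At steady state 1-NA-PP1 called 0 genes, but 994 by DESeq2, 749 by voom and 1712 without 1-NA-PP1 steady state replicate 1. Under heat shock it called 16, but 230 by DESeq2, 65 by voom, 47 with only the groups compared, 4 with the replicate block, 0 with the deposited factors and 0 to 235 with 1 library left out. The difference called 1 gene, but 24 by DESeq2, 848 without 1-NA-PP1 steady state replicate 1 and 0 to 2 under the others. Heat shock with 1-NA-PP1 called 2617, but 206 with the deposited factors.

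Deviations of same-numbered libraries had r of -0.31 to 0.264 between groups. Such correlations cannot settle whether libraries of the same number shared a culture or batch, because other differences between libraries enter them too. With a replicate block the members called were 0, 0, 4, 4 and 0, as without it. A block with crossed numbers at steady state, chosen after seeing the data, called 0. The deposited factors and the fit of only the groups compared have no value for the difference. Where a library is left out, the lone library of its group is assumed to vary like the other groups.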

Other observations

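Of the 106 genes with a match to the zinc-responsive element upstream, 35 (33%) were called lower with heat shock in DMSO cultures, against 28.9% of all genes tested. With the 7 zinc genes left out, 31 of 99 (31.3%) were called lower and 25 (25.3%) higher. With 1-NA-PP1, 29 of those 99 (29.3%) were called lower, against 28.1% of all genes. These shares are descriptions and were not tested.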
